A study of Mus musculus with 18 samples.

Results

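The data described here are the 2 sets of untreated control libraries of a study of Irf3 in fat cells: 3 libraries of 3T3-L1 adipocytes that carried the shLuc vector, and 3 that carried the EGFP vector. They were taken by their labels and are 6 of 18 libraries in all. Read counts were compared over the 27465 gene models outside chromosome M, of 27473 in the deposited table. The questions were what the baseline transcriptome of these control cells held, and how far the controls of the knockdown arm and of the overexpression arm lay from each other.

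The cells of all 18 libraries were differentiated 3T3-L1 adipocytes at passage 15. Mature cells were transduced with lentivirus for 6 days, and total RNA was taken with Trizol and a column kit. The shLuc libraries are labelled as the control for the knockdown of Irf3, and the EGFP libraries as the control for its overexpression. By the labels, Irf3 itself was changed in the shIrf3 libraries (knockdown) and in the libraries labelled 2D, called Irf3_2D here (overexpression). The shIrf3 and shLuc cells were also sampled after a further 6 days with LPS (shIrf3_LPS and shLuc_LPS). Each of the 6 groups had 3 replicates, and no label says that replicates were separate cultures, so p-values measure the spread between these libraries only. No group was without a vector, and no label gives the day of transduction or of sequencing. Vector, payload and batch therefore cannot be told apart in anything that follows.

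3T3-L1 is a mouse fibroblast line that turns into fat-storing adipocytes under a hormone cocktail and is a standard model of the fat cell. Lentivirus inserts its cargo into the genome of the host cell, which lets it reach adipocytes that no longer divide. A short hairpin RNA is cut by the cell into a small guide that silences a matching messenger RNA. One aimed at firefly luciferase, as the name shLuc implies, has no intended target in a mouse cell. EGFP is a fluorescent jellyfish protein, a usual stand-in where the tested vector makes a protein. IRF3 is a transcription factor that innate immune sensors switch on, and LPS, a bacterial cell wall lipid, is one of the signals that reach it. A hairpin control engages the small RNA machinery while a protein control uses the translation machinery, so each arm of such a study has its own control.

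The deposited table pairs its UCSC known-gene identifiers with positions on mouse build mm9 and with no gene names. None of the identifiers was found in the name tables used here, so gene models are given by identifier or position, without names or functions. For the same reason the level of Irf3 and the adipocyte markers that would check the labels are not reported here. Levels are given as CPM, read counts scaled to a common library size outside chromosome M with TMM factors over the 18 libraries. Comparisons between gene models use RPKM, which is CPM per kilobase of exon length.

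Depth did not separate the 2 groups. The shLuc libraries held 34368259, 28306753 and 25172651 counts, and the EGFP libraries 25021266, 29493012 and 24009609. Chromosome M and 1 gene model set single libraries apart. Chromosome M took 14.2%, 2.88% and 5.19% of the counts in shLuc replicates 1, 2 and 3, against 2.63%, 2.68% and 3.16% in EGFP replicates 1, 2 and 3. The means were 7.42% ± 5.98 in shLuc and 2.82% ± 0.293 in EGFP (SD, n = 3 each; exact permutation test, two-sided, p = 0.2, where 0.1 is the smallest p that 3 against 3 allows). The difference of 4.6 percentage points became 1.21 without shLuc replicate 1. A 21-exon gene model on chromosome 9 (chr9:123276058-123371782, 6886 bases of exon) took 4.36% of the counts outside chromosome M in that same replicate. Its RPKM values were 6610, 171 and 78.5 in shLuc and 579, 785 and 1300 in EGFP, so that 1 shLuc library was above and 2 were below all EGFP libraries (edgeR adjusted p = 0.603). Irf3_2D replicate 2 held 2760 RPKM of it. With that gene model left out of the comparison described below, 3119 gene models were higher in shLuc and 3013 lower, and with chromosome M kept in it 3048 were higher and 3090 lower, beside 3131 and 2945 as reported. Wilson 95% intervals of all shares of counts printed here are at most 0.02 percentage points either way and cover counting error only.

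The baseline transcriptome was broad and headed by a few gene models. Of the 27465 gene models, 16078 had a count in all 6 control libraries and 7190 had none in any of them. A mean of at least 1 RPKM was reached by 11294 gene models in shLuc and 10918 in EGFP, of which 10747 did so in both. At 10 RPKM the numbers were 5639 in shLuc and 5483 in EGFP. At 100 RPKM the order turned, with 565 in shLuc and 676 in EGFP. The 2 lists at 100 RPKM shared 503 members, while 62 passed in shLuc only and 173 in EGFP only. At 1000 RPKM there were 13 in shLuc and 22 in EGFP. The upper end of the expression range thus held fewer gene models in shLuc at these cutoffs, and the lower end more. A total of 858 gene models held 50% of the counts of the 6 libraries.

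The most abundant gene model of the control cells was a 4-exon model of 641 bases on chromosome 3 (chr3:10204343-10208576). It stood at 13300, 14200 and 12900 RPKM in shLuc and at 10200, 11000 and 12600 RPKM in EGFP. All 3 shLuc values were above the EGFP values, but by a log2 fold change of 0.25 that did not pass the test (edgeR adjusted p = 0.217). The next, an 8-exon model on chromosome 9 (chr9:78326261-78329531), was lower in shLuc, with 3680, 4700 and 3640 RPKM in shLuc against 6520, 6500 and 8120 RPKM in EGFP (log2 fold change -0.82, edgeR adjusted p = 0.00255). The third, a single-exon model of 6982 bases on chromosome 19 (chr19:5795690-5802671), went the other way. It held 4280, 4110 and 5070 RPKM in shLuc against 1760, 1870 and 1480 RPKM in EGFP (log2 fold change 1.38, edgeR adjusted p = 7.83e-05). It alone was 2.86%, 2.86% and 3.67% of the counts in shLuc, against 1.2%, 1.31% and 0.96% in EGFP. These 3 and the 21-exon model above were picked out by position after their values were seen. Among the 15 most abundant gene models, which ran from 1077 to 12370 RPKM, 1 was higher in shLuc, 7 were lower and 7 did not pass the test. Of all 14241 gene models tested, 22% were higher and 20.7% lower. Of the 699 with a mean over 256 CPM, 14.7% were higher and 44.6% lower.

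Between the control groups, 6076 of 14241 gene models tested differed (42.7%) at an adjusted p under 0.05 in edgeR's quasi-likelihood test with Benjamini-Hochberg adjustment. Of these, 3131 were higher in shLuc (22%) and 2945 were lower (20.7%). The higher ones moved further. Their median log2 fold change, shLuc over EGFP, was 0.84, against -0.54 for the lower ones and 0.03 for all gene models tested. At least 2-fold changes were called in 1213 gene models (8.52%), 1159 of them higher (8.14%) and 54 lower (0.379%). The largest called changes were 5.69 and -2.24 on the log2 scale. In a bulk library, fewer cells of a kind and less RNA per cell cannot be told apart. The CPM values of the groups did not overlap for 7869 gene models (55.3%), 4056 of them with every shLuc library above every EGFP library (28.5%) and 3813 with every shLuc library below (26.8%).

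**Figure D1:**
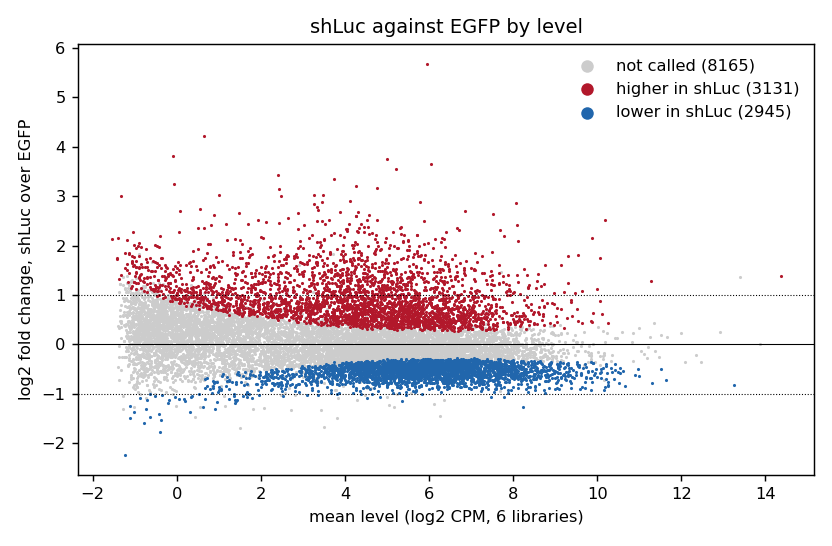
Each point is 1 of the 14241 gene models tested, with its mean level over the 6 control libraries in log2 CPM on the horizontal axis and its log2 fold change, shLuc over EGFP, on the vertical axis; red points were higher in shLuc (3131), blue points lower (2945) and grey points not called (8165). Dotted lines mark 2-fold changes, and calls past the upper line outnumber those past the lower one.

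The number of calls moved with single libraries. Without shLuc replicate 3 it was 3860, with 2298 higher and 1562 lower, and without shLuc replicate 2 it was 6948, with 3418 higher and 3530 lower. Without shLuc replicate 1, the library with the high share of chromosome M, 4922 gene models were called. The 54 gene models lower by at least 2-fold became 171 without shLuc replicate 2, 34 without shLuc replicate 3 and 129 without EGFP replicate 2. Of the 6076 calls, 3851 were called again without shLuc replicate 3, 4228 without EGFP replicate 3 and 5842 without shLuc replicate 2.

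Distances between whole libraries gave the scale of the difference. The root mean square difference in log2 CPM between a shLuc and an EGFP library ran from 0.519 to 0.862 with a median of 0.716 over 9 pairs. Within shLuc it was 0.331 to 0.462 and within EGFP 0.41 to 0.446, over 3 pairs each. Among the EGFP libraries, replicate 3 was the farthest from shLuc replicates 1, 2 and 3, at 0.862, 0.651 and 0.831. The share of gene models more than 2-fold apart was 6.37% to 19.8% for shLuc against EGFP libraries, 1.19% to 4.14% within shLuc and 3.32% to 3.78% within EGFP. No 2 control libraries were copies of each other, since their counts differed beyond sampling noise in every pair (chi-square per degree of freedom of 24.8 to 136 within shLuc and 23.5 to 33.3 within EGFP).

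**Figure D2:**
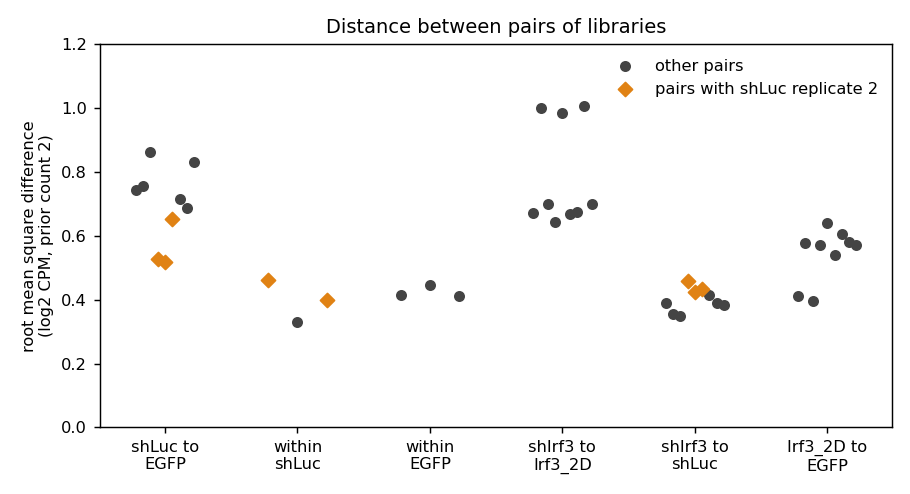
Each point is 1 pair of libraries, and the vertical axis is the root mean square difference of their log2 CPM values (prior count 2); orange diamonds are pairs that include shLuc replicate 2. Pairs of a shLuc and an EGFP library lie between 0.519 and 0.862, above all pairs within shLuc or within EGFP, and the shLuc to EGFP pairs with shLuc replicate 2 are the 3 lowest.

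The distances also placed the controls among the libraries with changed Irf3. From shIrf3 to shLuc they ran from 0.35 to 0.459 (median 0.389), and from Irf3_2D to EGFP from 0.396 to 0.64 (median 0.571). From shIrf3 to Irf3_2D they ran from 0.643 to 1.006 (median 0.699), a range that includes the median between the control groups. In fits of 6 libraries each, Irf3_2D differed from EGFP in 201 of 13924 gene models (1.44%) and shIrf3 from shLuc in 440 of 14397 (3.06%). Those 2 comparisons each use a control group described here, and their counts hung on single libraries. For Irf3_2D against EGFP, leaving out 1 library gave 7 calls without EGFP replicate 2 or 3, 13 without Irf3_2D replicate 1, 53 without Irf3_2D replicate 3 and 1030 without Irf3_2D replicate 2. For shIrf3 against shLuc it gave 31, 41 and 58 calls without shIrf3 replicates 1, 2 and 3, and 1505, 1075 and 36 without shLuc replicates 1, 2 and 3. The count of calls between the control groups stayed between 3860 and 6948 when 1 of their libraries was left out.

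shLuc replicate 2 stood nearer to EGFP than its companions did. Whether that library holds RNA of shLuc cells alone was not tested, and every shLuc mean and fold change given here includes it unless it is said to be left out. Its distances to the EGFP libraries were 0.527, 0.519 and 0.651, while those of shLuc replicates 1 and 3 were 0.686 to 0.862. On the first principal component of the 6 libraries, with 69.2% of the variance, shLuc replicates 1, 2 and 3 lay at 49.9, 16.3 and 44.7, and EGFP replicates 1, 2 and 3 at -30.6, -31.1 and -49.2. Among the gene models called higher in shLuc, shLuc replicate 2 was the shLuc library with the lowest CPM in 2374 of 3131 (75.8%). Among those called lower, it was the shLuc library with the highest CPM in 2495 of 2945 (84.7%). These shares are over gene models called with that library in the fit, and the same shares over all gene models tested are not given here. To place shLuc replicate 2 without using it, the 1661 gene models were taken that were called at least 2-fold apart when it was left out (1490 higher and 171 lower). On a scale from the EGFP mean (0%) to the mean of shLuc replicates 1 and 3 (100%), shLuc replicate 2 sat at a median of 62.7% over these gene models, with quartiles of 46.8% and 77.9%. No shIrf3 library sat below 89.2% or above 94.2%, and the LPS-treated libraries, all from the knockdown arm, lay between 89% and 93.1%. Irf3_2D replicates 1, 2 and 3 sat at 27.2%, -19.1% and 18.7%.

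**Figure D3:**
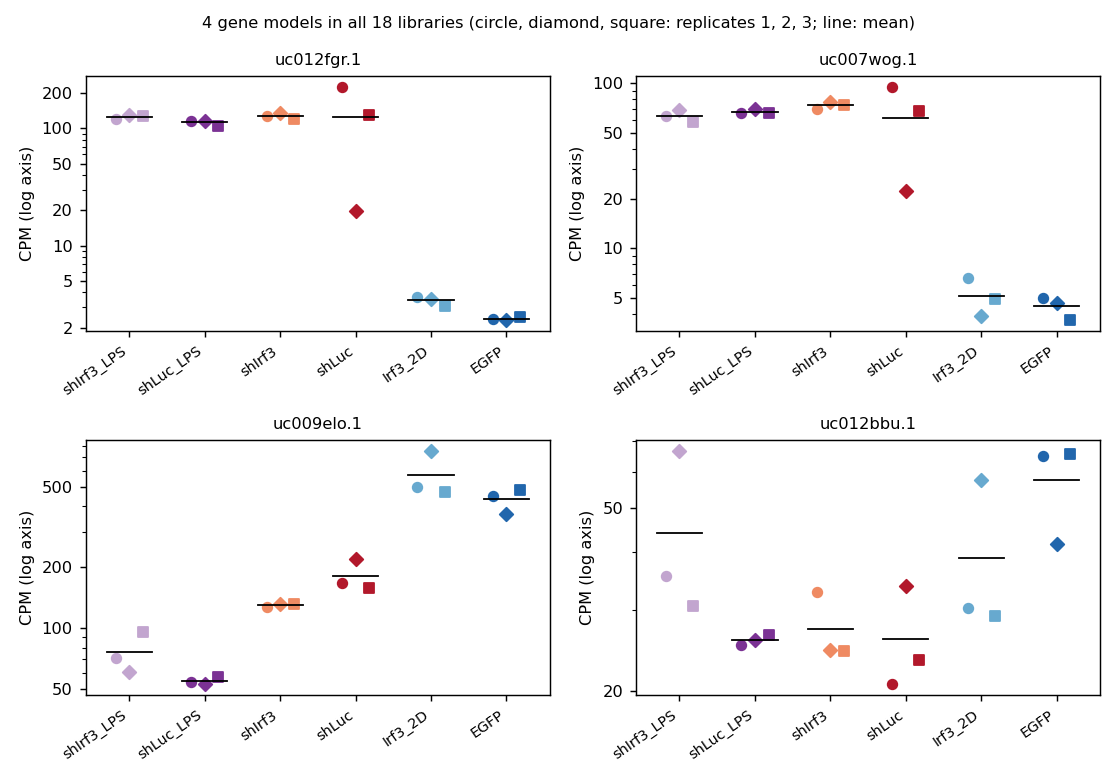
CPM on a log axis of the 4 gene models given by identifier, in all 18 libraries by group; circles, diamonds and squares are replicates 1, 2 and 3 and lines are group means. For uc012fgr.1 and uc007wog.1, shLuc replicate 2 lies between the other shLuc libraries and the EGFP libraries, at 19.9 and 22.2 CPM.

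The gene model with the largest increase in shLuc was uc012fgr.1, 5 exons and 615 bases on the plus strand of chromosome 7 (chr7:29135708-29137717). It was counted at 223, 19.9 and 129 CPM in shLuc, against 2.35, 2.34 and 2.45 CPM in EGFP. The groups did not overlap, which the rule for naming gene models required, but shLuc replicate 2 was far below the other shLuc libraries. The log2 fold change was 5.69 (SE 1.15, edgeR adjusted p = 0.0206), and the means were 124 ± 102 CPM in shLuc and 2.38 ± 0.0617 CPM in EGFP (SD, n = 3 each). It read 127, 135 and 120 CPM in shIrf3 and 3.66, 3.5 and 3.08 CPM in Irf3_2D, and it was at 105 to 130 CPM in the 6 LPS-treated libraries. It was thus at 19.9 CPM or more in all 12 libraries of the knockdown arm and at 3.66 CPM or less in all 6 of the overexpression arm. The call was lost without shLuc replicate 3 (edgeR adjusted p = 0.0677) and without EGFP replicates 1, 2 or 3 (edgeR adjusted p = 0.0784, 0.0803 and 0.0873), and held without shLuc replicate 2 (log2 fold change 6.19, edgeR adjusted p = 3.1e-06). The call held in 15 of its 20 alternatives, over which the adjusted p ran from 1.86e-09 to 0.0873.

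The second, uc007wog.1, has 3 exons and 3557 bases on the minus strand of chromosome 15 (chr15:77745481-77759424). It was counted at 94, 22.2 and 67.3 CPM in shLuc, against 5.04, 4.64 and 3.7 CPM in EGFP. Every shLuc library was above every EGFP library, as the naming rule required, with shLuc replicate 2 again the nearest. The log2 fold change was 3.76 (SE 0.63, edgeR adjusted p = 0.0095). The values in shIrf3 were 69.5, 76.8 and 73.7 CPM and those in Irf3_2D 6.63, 3.87 and 4.97 CPM. The call held in 18 of its 20 alternatives, over which the adjusted p ran from 3.43e-09 to 0.0564. The highest was that without EGFP replicate 3.

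Among gene models that fell in shLuc, uc009elo.1 had the largest change among those without overlap between the groups that averaged 5 CPM or more in EGFP. It has 6 exons and 2832 bases on the plus strand of chromosome 6 (chr6:135312949-135333191). It stood at 168, 219 and 158 CPM in shLuc and at 453, 367 and 484 CPM in EGFP, with no overlap. The log2 fold change was -1.26 (SE 0.15, edgeR adjusted p = 5.38e-05), and the call held in all 20 alternatives. It was at 127, 131 and 132 CPM in shIrf3 and at 501, 749 and 473 CPM in Irf3_2D. In the LPS-treated libraries it lay lower than in any other library, at 71, 60.5 and 96 CPM in shIrf3_LPS and at 54.1, 53.1 and 57.1 CPM in shLuc_LPS.

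The fourth, uc012bbu.1, is a single exon of 345 bases on the plus strand of chromosome 18 (chr18:36961417-36961761). It was counted at 20.7, 33.8 and 23.3 CPM in shLuc, against 64.9, 41.7 and 65.7 CPM in EGFP. The log2 fold change was -1.15 (SE 0.23, edgeR adjusted p = 0.00339), and the call held in all 20 alternatives. In the libraries with changed Irf3 the 2 arms were less separate: 32.8, 24.5 and 24.4 CPM in shIrf3 and 30.2, 57.6 and 29.1 CPM in Irf3_2D overlapped, with a log2 fold change of -0.5 (edgeR adjusted p = 0.161).

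The next 10 gene models in each direction by the same rule are given by their ranges. Those higher in shLuc had log2 fold changes of 3 to 3.65 and lay on 7 chromosomes, and shLuc replicate 2 was the lowest shLuc library for 9 of 10. Those lower in shLuc had log2 fold changes of -1.01 to -1.09 and also lay on 7 chromosomes. By exon length the 2 lists were alike, with 748 to 4399 bases for the higher and 1172 to 4257 bases for the lower gene models.

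Long gene models were counted more in shLuc and mid-length ones less. Of 4065 gene models with over 5000 bases of exon, 31.1% were higher in shLuc and 12.9% lower. Of 6542 with 2001 to 5000 bases, 20% were higher and 23.1% lower. Of 3424 with 500 to 2000 bases, 15.6% were higher and 26% lower. The medians on the log2 scale were 0.18 over 5000 bases, -0.01 at 2001 to 5000 bases and -0.09 at 500 to 2000 bases. The first became -0.03 when each library was scaled along exon length, which removes such a trend by construction, and the third became 0.01 with no filter on low counts. The 210 gene models tested under 500 bases had 11% higher and 10.5% lower, with a median of -0.01.

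The shares of counts followed the same order. Gene models over 5000 bases took 46.2%, 41.4% and 44% of the counts outside chromosome M in shLuc, against 38.8%, 39.3% and 37.2% in EGFP. Every shLuc library was above every EGFP library (exact permutation test, two-sided, p = 0.1, the smallest possible). Those of 500 to 2000 bases took 17.7%, 19.7% and 18.1% in shLuc, against 20.7%, 20.6% and 22.5% in EGFP (exact permutation test, p = 0.1). The 21-exon gene model of chromosome 9 and the single-exon gene model of chromosome 19 are both over 5000 bases long. Without those 2, the longest class took 41.2% ± 1.37 in shLuc and 37.3% ± 1.08 in EGFP (SD, n = 3 each; exact permutation test, p = 0.1). Single-exon gene models took 4.44% ± 0.507 of the counts in shLuc and 2.48% ± 0.218 in EGFP (SD, n = 3 each; exact permutation test, p = 0.1). Without those 2 gene models the single-exon share was 1.37% ± 0.03 in shLuc and 1.34% ± 0.0416 in EGFP (exact permutation test, p = 0.4).

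The direction of change also followed the level. Gene models under 1 CPM in the mean of the 6 libraries were called higher in shLuc in 9.9% of cases and lower in 1.13%, and their median log2 fold change was 0.34. Some of these lay near the filter on low counts, which a gene model can pass through the higher group alone. Their median without that filter is not given here. Those at 1 to 4 CPM had 17.7% higher and 3.32% lower, and those at 4 to 16 CPM 28.8% higher and 13.1% lower. At 16 to 64 CPM both directions were equally common, with 27.4% higher and 26.9% lower. At 64 to 256 CPM 20% were higher and 36.5% lower, and over 256 CPM 14.7% were higher and 44.6% lower, with a median of -0.27. Weakly counted gene models were thus raised in shLuc relative to the median of 0.03 and strongly counted ones lowered. Scaling each library along level, which removes such a trend by construction, left 2900 gene models higher and 2990 lower, of which 974 and 147 were at least 2-fold apart.

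**Figure D4:**
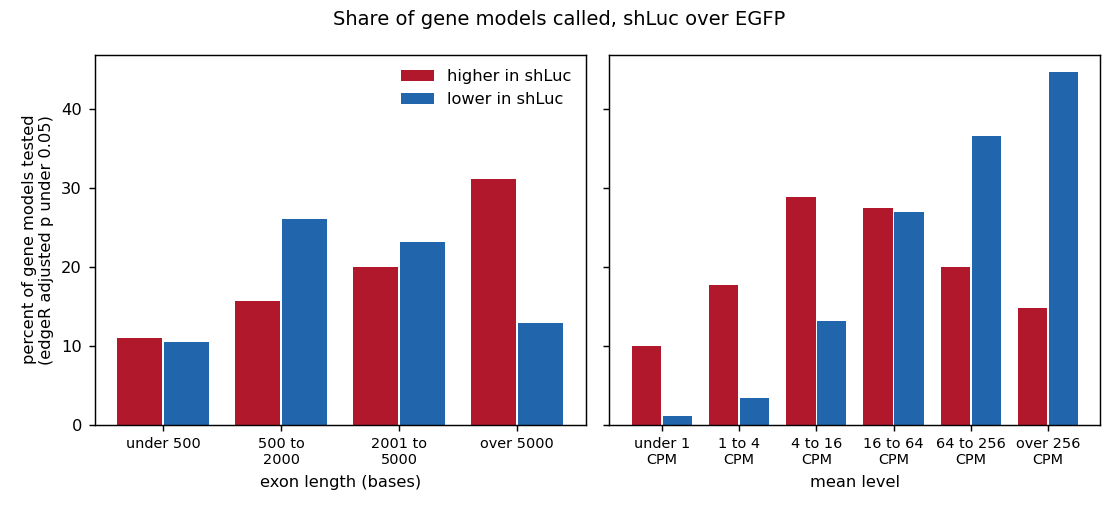
Bars give the percent of tested gene models called higher (red) or lower (blue) in shLuc than in EGFP, by exon length in bases (left) and by mean level in CPM (right); both axes start at 0. Calls of higher level peak at 31.1% for gene models over 5000 bases, and calls of lower level reach 44.6% over 256 CPM.

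Most bands of level showed the length pattern, and most bands of length the level pattern, but not those of the shortest gene models. At 16 to 64 CPM, 40.6% of 1324 gene models over 5000 bases were higher in shLuc and 11.2% lower, while of 879 gene models of 500 to 2000 bases 18.8% were higher and 41.4% lower. Within the gene models over 5000 bases, 41% were higher and 4.23% lower at 4 to 16 CPM, and 20.7% were higher and 31.2% lower over 256 CPM. Under 500 bases, the 60 gene models at 1 to 4 CPM had 6.67% higher and 13.3% lower, and the 23 at 64 to 256 CPM had 21.7% higher and 4.35% lower. By exon number there was no steady order. Single-exon gene models had 20.7% higher and 12.3% lower in shLuc, those of 2 to 5 exons 18.3% and 18.6%, those of 6 to 20 exons 21.5% and 24.5%, and those of over 20 exons 30.7% and 13%. Gene models with exons listed on both strands, where reads of overlapping genes cannot be told apart, had 22.6% higher and 22.8% lower, near the 21.9% and 20.5% of the others.

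Seen library by library, the length pattern followed the arms, with shLuc replicate 2 in between. Deviations were taken from the mean over the 6 control libraries, less each library's own median over all gene models tested. For gene models over 5000 bases the median deviation was 0.099, 0.02 and 0.094 log2 CPM in shLuc replicates 1, 2 and 3, against -0.058, -0.047 and -0.128 in EGFP replicates 1, 2 and 3. On the same scale the shIrf3 libraries lay at 0.077, 0.095 and 0.104 and the Irf3_2D libraries at -0.027, -0.124 and -0.047. For gene models over 256 CPM the deviations were -0.176, -0.041 and -0.255 in shLuc and 0.089, 0.103 and 0.249 in EGFP. For those under 1 CPM they were 0.216, -0.005 and 0.323 in shLuc and -0.14, -0.074 and -0.168 in EGFP. More gene models were seen at all in shLuc, with a count in 18632, 18004 and 18272 of them, against 17565, 17962 and 17405 in EGFP (exact permutation test, two-sided, p = 0.1). What part length, level or the composition of the libraries had in the calls of single gene models was not tested beyond the alternatives given.

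A second look at the 2 arms came from the shIrf3 and Irf3_2D libraries, which share no library with the control comparison. They too differ in vector, and no label says whether they also differ in batch. By their labels Irf3 was moved in opposite directions in them, so they are no replicate of the controls. There 6631 of 14216 gene models were called (46.6%), 3281 higher in shIrf3 (23.1%) and 3350 lower (23.6%). Of the 6046 gene models called between the controls and tested in both, 5897 had the same sign in the second comparison (97.5%). Of the 7955 not called between the controls, 75.9% had the same sign. The second comparison called 4400 of the 6046 in the same direction (72.8%), against 23.2% of those not called between the controls. Those 4400 are 66.4% of the calls of the second comparison and 72.4% of those of the control comparison. Without shIrf3 replicate 3 the second comparison called 2086 higher and 1780 lower and shared 2825 calls. Without shIrf3 replicate 1 it called 1945 lower, and without shIrf3 replicate 2 it called 2156 higher and 1961 lower.

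Sizes were close for some gene models and apart for others. These medians are over gene models tested in both comparisons. Those called higher in shLuc had a median log2 fold change of 0.83 between the controls and 0.76 between shIrf3 and Irf3_2D, and those called lower in shLuc had -0.54 in both. The second comparison had more large decreases. At least 2-fold changes were called in 1665 gene models (11.7%), 1222 higher in shIrf3 (8.6%) and 443 lower (3.12%), where the controls had 1159 higher and 54 lower. Its largest called decrease was -5.84 on the log2 scale, against -2.24 between the controls. The gene models under 500 bases had a median of -0.41 in the second comparison and -0.01 between the controls. Across 14001 gene models, Pearson's r between the 2 sets of log2 fold changes was 0.799 and Spearman's rho 0.828. This is a description across gene models, which share libraries, depth and exon length and are not independent replicates. Of the 4 gene models given by identifier, uc012fgr.1 (log2 fold change 5.23, edgeR adjusted p = 1.25e-06), uc007wog.1 (3.82, edgeR adjusted p = 8.8e-05) and uc009elo.1 (-2.13, edgeR adjusted p = 0.000231) were called the same way in the second comparison. The single-exon gene model of chromosome 19 held 4390, 4370 and 4490 RPKM in shIrf3 against 2130, 1030 and 1950 RPKM in Irf3_2D.

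**Figure D5:**
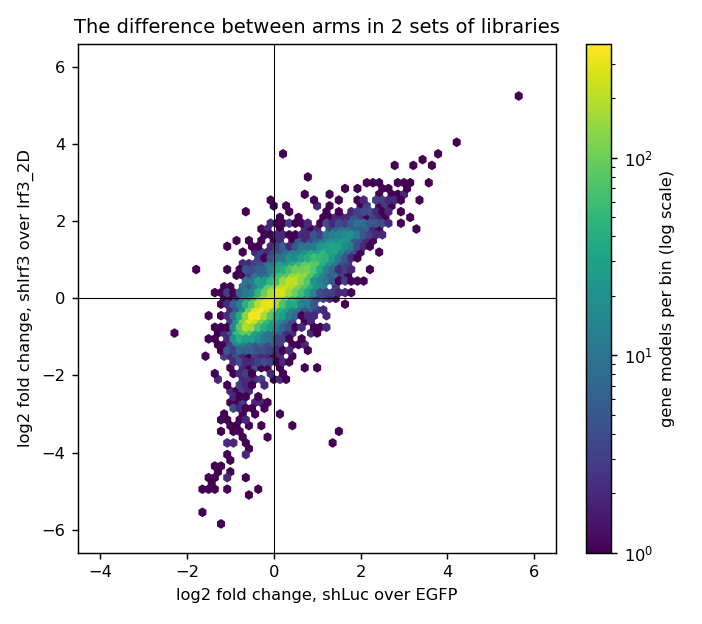
Each hexagon is coloured by the number of gene models it holds (log scale), with the log2 fold change of shLuc over EGFP on the horizontal axis and that of shIrf3 over Irf3_2D on the vertical axis, over 14001 gene models tested in both. Most gene models lie along the diagonal (Pearson's r 0.799), with a tail of gene models far lower in shIrf3 than in Irf3_2D and less so between the controls.

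The difference of the 2 arm differences was tested in 1 edgeR fit of the 12 libraries without LPS. It equals the change of shIrf3 over shLuc minus that of Irf3_2D over EGFP, so changes of Irf3 enter it by design. It was called for 93 of 14679 gene models (0.634%), 35 with a larger (0.238%) and 58 with a smaller value (0.395%) between shIrf3 and Irf3_2D, and 1412 passed an unadjusted p of 0.05. Among the gene models called between the controls, 16 were called in the opposite direction in the second comparison, 4 of them higher in shLuc and 12 lower. Of those 16, 10 were among the 93. The count of 93 moved with single libraries. It was 48 and 38 without shLuc replicates 2 and 3, and 217, 34 and 50 without EGFP replicates 1, 2 and 3. It was 18 and 21 without shIrf3 replicates 1 and 3, and 55, 235 and 51 without Irf3_2D replicates 1, 2 and 3.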

How the data were processed

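RNA of 18 libraries was sequenced after a bead kit had taken ribosomal RNA out of 70 ng of total RNA, with library preparation by the TruSeq RNA kit v2, per the labels' protocols. That kit leaves strand unmarked. Per the submitters' processing notes, the tools were TopHat2 2.0.14, featureCounts 1.4.6, edgeR, SAMtools 0.1.19, Picard 2.2.4 and bcl2fastq 2.17.1.14, with build mm9. Roles and settings, not given in the sources used here, could change the values. The deposited values are raw counts per gene model, in whole numbers. Per the file headers, the table also holds exon positions, strand and exon length; 1497 gene models list exons on both strands. Reads shared by near-identical gene copies may be split or lost in such counts.

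All 18 count columns were matched to samples by title. Comparisons used the 6 libraries of both groups, filterByExpr, TMM and the robust quasi-likelihood F test of edgeR 4.0.16 (R 4.3.3) over gene models outside chromosome M, with Benjamini-Hochberg adjustment at 0.05. A standard error is the absolute log2 fold change over the square root of F. Single values per library were compared by exact permutation. Distances used log2 CPM with a prior count of 2. Alternatives included DESeq2 1.42.0, limma 3.58.1 (voom), other scalings and filters, other sets of libraries and leaving out each library; scaling along exon length or level, leaving out 1 gene model, and all alternatives of the interaction and of the 2 comparisons with changed Irf3 were added after the data were seen. On simulated counts for shLuc over EGFP (14114 gene models, 200 changed), the test recovered 35.8% of 1.5-fold, 80.6% of 2-fold and 100% of 4-fold changes, and 11 of 155 calls were of unchanged gene models (7.1%). The simulation changed far fewer gene models than the 42.7% called in the data. It also set no library apart from its group, as shLuc replicate 2 was. These rates therefore need not hold for the comparison reported.

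The groups compared and the lists were chosen with earlier results of these data known. The naming rule takes the 12 called gene models per direction whose log2 fold change is largest, where the higher group averages 5 CPM or more and the groups do not overlap, and the first 2 are given by identifier. Gene lists and markers need gene names and are not reported here, since 0 identifiers occurred in the name tables, which are of build GRCm38. Sequences are not shown, as no genome of build mm9 was used.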

Additional observations from a re-analysis of the deposited data

Results flagged for a closer look

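The difference between the arms was not the same in both pairs of groups. In 1 edgeR fit of the 12 libraries without LPS, the log2 fold change of shIrf3 over Irf3_2D differed from that of shLuc over EGFP for 93 of 14679 gene models, 35 of them with the larger value between shIrf3 and Irf3_2D and 58 with the smaller one. A difference between the arms that is common to both pairs cancels in this value by construction. The same value is the log2 fold change of shIrf3 over shLuc minus that of Irf3_2D over EGFP. Any change that came with the knockdown or the overexpression of Irf3 thus enters it by design. What the 93 gene models reflect was not tested. The count ran from 18 to 235 when 1 library was left out.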

How the results depend on the processing

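Of the 6076 calls between shLuc and EGFP, 3851 to 5842 were made again when 1 library was left out and 5155 to 6053 under the other 14 settings. Leaving out 1 library gave 2283 to 3418 higher and 1562 to 3530 lower gene models, the lowest count of lower ones without shLuc replicate 3. Those 14 settings gave 2772 to 3910 higher and 2411 to 3707 lower; DESeq2 called 2950 and 3110. With library totals alone 57.7% of calls were higher, and with scaling along exon length 43.8%, against 51.5%; no scaling moved the median of all gene models by over 0.1. The 54 gene models lower by at least 2-fold became 83 with no filter on low counts, 27 at 1 CPM or more in 3 libraries and 147 with scaling along level. For shIrf3 over Irf3_2D, leaving out 1 library gave 2086 to 4095 higher and 1780 to 4254 lower, and 2825 to 4976 calls shared with the control comparison. The chromosome M difference ran from 1.21 to 6.87 percentage points. The 93 gene models of the interaction became 144 with limma-voom. The cause of these shifts was not tested. No pairing of samples by replicate number was evident. Deviations of same-numbered shLuc and EGFP libraries correlated at 0.141, -0.085 and -0.138 for replicates 1, 2 and 3. Not every library correlated best with its own number, though those of replicate 1 did. Deviations from a mean of 3 libraries are tied to each other, so these correlations cannot exclude a pairing. With the replicate block, 3185 gene models were higher and 3024 lower, shIrf3 over Irf3_2D had 3171 and 2950, 4423 calls were shared, and uc012fgr.1 (log2 fold change 5.2, edgeR adjusted p = 0.0683) and uc007wog.1 (3.55, edgeR adjusted p = 0.0529) were not called.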

Other observations

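Calls were spread over all the larger chromosomes. The share of tested gene models higher in shLuc than in EGFP ran from 17.5% on chromosome 13 to 26.2% on chromosomes 16 and 18, and the share lower from 15.4% on chromosome 18 to 26% on chromosome X. Some neighbours moved together. Taking tested gene models in order of position, there were 10 stretches of at least 5 neighbours all called higher in shLuc and 7 of at least 5 all called lower. Of the higher ones, 2 held 6 gene models, the most of any higher stretch. At chr14:48092236-49134834 the log2 fold changes were 0.41 to 1.28 and all 6 were also called higher in shIrf3 than in Irf3_2D, and at chr4:57447347-58219468 they were 0.6 to 1.49 and 4 of 6 were. At chr8:125149036-125566184, 5 gene models had log2 fold changes of 0.88 to 2.66, and all 5 were called the same way in the second comparison. At chr6:72791108-78985863, the widest stretch, 5 gene models had log2 fold changes of 0.48 to 1.56 and 1 of 5 was called the same way. The lower ones with the most members had 7 gene models each, at chr13:34009787-34222223 and at chr5:130221403-130363340, and 5 of 7 were called lower in the second comparison in both. One of the gene models in each of these 2 lower stretches lists exons on both strands. Of all control calls tested in both comparisons, 72.9% of the higher and 72.6% of the lower ones were called the same way. The stretches were picked for their calls, and how often such stretches arise by chance was not tested.

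In the deposited table the libraries do not stand by arm: the first 9 columns hold the shLuc, EGFP and Irf3_2D libraries, and the shIrf3 and LPS-treated libraries follow. What this order stands for is not stated.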
